A study of Mus musculus with 80 samples.

Results

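The transcripts of 35 genes that fold proteins in the endoplasmic reticulum (ER), sense misfolded proteins there or send them for degradation were followed in 4 tissues and 4 genotypes. The genes were taken as a fixed list of symbols, and all 35 were among the 32764 genes of the count tables. All 35 passed the low-count filter in liver, in BAT (brown adipose tissue) and in iWAT (the inguinal white fat depot), and 34 passed in muscle, where Derl3 was too low to be tested.

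All mice were male C57BL/6J animals raised at 30 °C, moved to room temperature at 10 to 12 weeks of age and fed a high-fat diet for 3 weeks before the tissues were taken. The groups were WT mice, FGF21 KO mice without the hormone gene Fgf21, UCP1 KO mice without the mitochondrial uncoupling protein of brown fat, and mice without both genes (dKO). The labels name the last group a UCP1/FGF12 double KO, and the study calls it a UCP1/FGF21 double KO. The knockouts are homozygous and present in every cell from birth, so a difference can follow the lack of the protein at any age. Each genotype and tissue had 5 libraries, 80 in all, and no label tied libraries to the same mouse.

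The libraries held 28691377 to 50380696 counted reads. Levels are given as CPM (counts relative to library size) scaled with TMM factors, and as CPM per kb of exon where different genes are compared. Each tissue had 1 edgeR model over its 20 libraries, tested by the quasi-likelihood F statistic. A gene was called when its Benjamini-Hochberg adjusted p, taken over all genes tested in the tissue, was under 0.01. In single genes, libraries that did not overlap between groups gave a two-sided exact permutation p of 0.00794, the smallest that 5 libraries against 5 allow. The tissue markers fitted the labels: the hepatocyte score, a mean log2 of CPM plus 0.1 over 6 genes, was 12.1 to 12.5 in liver, and the scores were 13.0 to 13.3 for skeletal muscle in muscle, 8.56 to 9.69 for brown adipocytes in BAT and 9.57 to 11.4 for adipocytes in iWAT. Fgf21 had at most 3 counts in any FGF21 KO or dKO library. Ucp1 was not at 0 in the libraries labelled UCP1 KO. In BAT they held 24291 to 60779 counts of it, below the 98548 to 216085 of WT, but in iWAT they held more than WT (3942 to 20264 counts and 109 to 776). Since Ucp1 was counted in both depots of these mice, the higher level in iWAT does not by itself show a wrong label. The paper reports raised browning markers in iWAT of UCP1 KO mice. Whether the labels are right was not tested. Fgf21 had 23 to 385 counts in the iWAT libraries labelled UCP1 KO, 2 to 11 in WT and 0 to 1 in the 10 labelled FGF21 KO or dKO, and in BAT 353 to 1728 in UCP1 KO and 7 to 10 in WT, so it was higher in UCP1 KO in both depots. Which exons were covered was not analysed here, and UCP1 KO and dKO below stand for the libraries labelled so.

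Proteins that enter the ER are bound by the Hsp70 chaperone BiP (Hspa5), by the Hsp90 chaperone Grp94 (Hsp90b1) and by the lectin chaperones calreticulin and calnexin, while protein disulfide isomerases and the Ero1 oxidases form their disulfide bonds. When unfolded proteins accumulate, the membrane sensors IRE1 (Ern1), ATF6 and PERK raise the transcription of chaperones and of the ER-associated degradation machinery, slow translation, and splice Xbp1 mRNA into its active form. Brown adipocytes and hepatocytes both use this response, the first in cold-induced remodelling and the second in the secretion of plasma proteins. Splicing of Xbp1 and translation cannot be seen in gene counts.

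ATF6 and XBP1 act through short promoter elements, which are shown here because many genes of the response are controlled through them. The ER stress element (ERSE) was searched as CCAAT followed by CCACG with 9 bases between them, and ERSE-II as ATTGG followed by CCACG with 1 base between them, on both strands, from 250 bases before to 50 after the start of each gene (RefSeq, GRCm38.p6). Promoters were found for 31 of the 35 members, all but Hyou1, Manf, Atf6 and Derl1. ERSE was present in 10 of the 31, and in 0.119% of all 32851 promoters of the table. ERSE-II was present in Herpud1 and Dnajb11, and in 0.0365% of all promoters. The 10 with an ERSE were Hspa5, Hsp90b1 with 2 copies, Dnajc3, Creld2, Calr, Canx, Pdia6, Ero1lb, Syvn1 and Derl3. The element TGACGTGG (UPRE) was present in Vcp, and in 0.676% of all promoters. The element TGACGTCA (CRE) was in no member and in 1.79% of all promoters. In the windows below, read 5′ to 3′ along the strand that carries the element, capitals mark the bases searched for.
Hspa5, ERSE, chr2:34772020-34772048, plus strand: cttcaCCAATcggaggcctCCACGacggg
Calr, ERSE, chr8:84847070-84847098, plus strand: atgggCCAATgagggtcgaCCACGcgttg
Pdia6, ERSE, chr12:17266486-17266514, plus strand: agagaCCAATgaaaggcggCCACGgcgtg
Creld2, ERSE, chr15:88819515-88819543, minus strand: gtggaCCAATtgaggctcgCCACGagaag
Syvn1, ERSE, chr19:6046527-6046555, plus strand: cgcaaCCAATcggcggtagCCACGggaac
Derl3, ERSE, chr10:75893237-75893265, minus strand: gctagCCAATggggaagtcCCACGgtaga
Dnajb11, ERSE-II, chr16:22857847-22857867, plus strand: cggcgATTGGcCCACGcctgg
Herpud1, ERSE-II, chr8:94386372-94386392, plus strand: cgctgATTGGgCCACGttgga
A match describes the letters of the window and does not show that a factor binds there.

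To see where the members are used, their levels were first compared between the tissues of WT mice. The set was highest in liver. Against iWAT, 34 of 35 members were higher in liver and 0 lower (36.6% and 38.2% of the 16886 genes tested). Against BAT, 32 were higher and 0 lower (32.5% and 34.8%). Against muscle, 32 were higher and 1 lower (35.2% and 38.6%), the exception being the extraction ATPase Vcp with a log2 fold change of -0.34 (SE 0.0805). DESeq2, run as an alternative, also called 0 members lower in liver than in BAT, and 1 lower than in iWAT, Atf6b, which had a log2 fold change of -0.27 and an adjusted p of 0.019 by edgeR. Lower expression in a tissue may mean fewer cells of a type or less RNA per cell, which cannot be told apart in bulk samples.

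**Figure D1:**
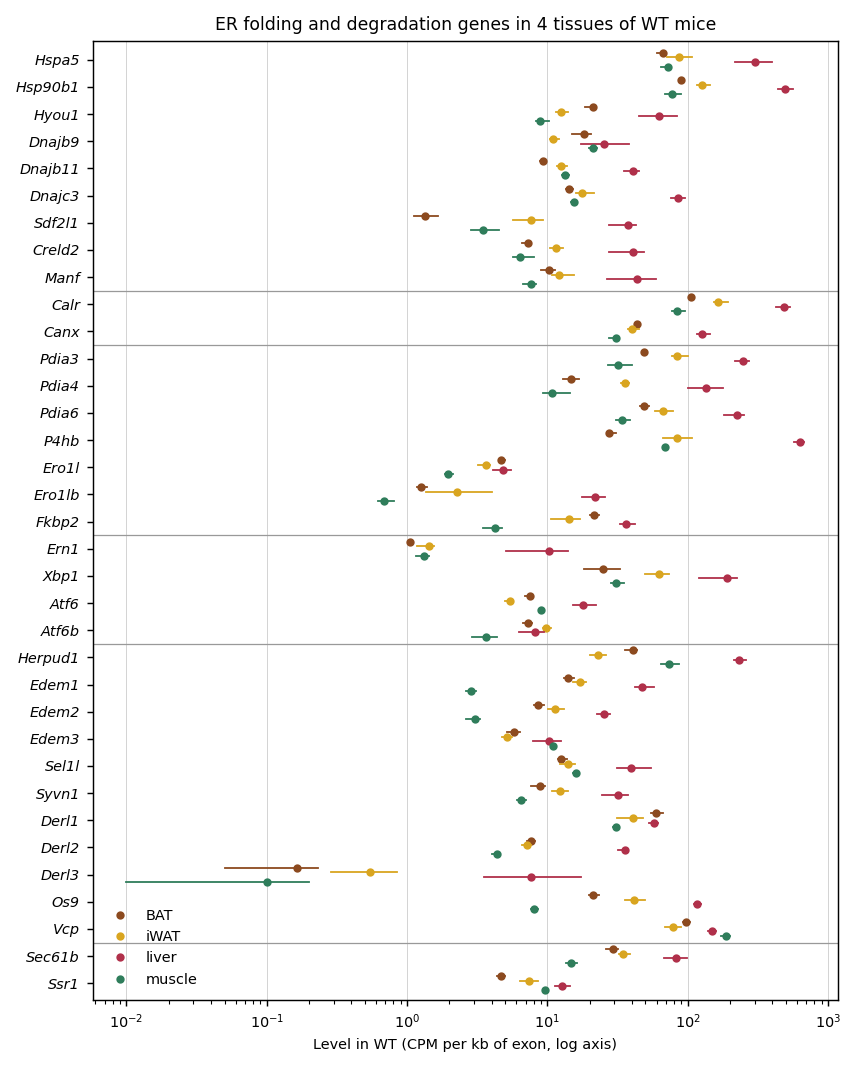
Level of each of the 35 members in WT mice, in CPM per kb of exon on a log axis, with points for the mean and lines for the lowest and highest of 5 libraries per tissue. Grey lines divide the roles (Hsp70 and Hsp90 chaperones, lectin chaperones, disulfide and proline enzymes, sensors, degradation, translocon), and a library at 0 is drawn at the left end. Liver, in red, lies to the right for most members, and Derl3 is the lowest in BAT, iWAT and muscle.

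Per kb of exon, the most abundant member differed between tissues. These levels and the differences between tissues were scaled with TMM factors over the 20 WT libraries of all 4 tissues together, so they are on another scale than the CPM given below within 1 tissue. In liver it was P4hb, the first protein disulfide isomerase described, at 630 ± 41.0 CPM per kb (SD, n = 5), followed by Hsp90b1 at 497 ± 54.8 and Calr at 485 ± 44.9, which did not differ beyond their spread, and then Hspa5 at 301 ± 77.4. In BAT Calr led at 106 ± 4.44, followed by Vcp at 97.3 ± 4.41 and Hsp90b1 at 89.9 ± 3.27. In iWAT Calr led as well, at 165 ± 16.8, and in muscle Vcp did, at 188 ± 11.4, against 83.7 ± 7.07 for Calr. The least abundant was the derlin Derl3 in BAT (0.163 ± 0.0706), iWAT (0.540 ± 0.231) and muscle (0.0999 ± 0.0803), while in liver the oxidase Ero1l was last, at 4.85 ± 0.480.

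The members differed widely in how strongly liver stood out. Derl3, which helps to draw misfolded proteins out of the ER, had the largest log2 fold change of liver against BAT, 5.51 (SE 0.559), followed by the BiP partner Sdf2l1 with 4.80 (SE 0.181) and P4hb with 4.50 (SE 0.129). Ero1l had 0.05 (SE 0.0723), Atf6b 0.17 (SE 0.102) and Derl1 -0.06 (SE 0.102), and these 3 were not called. Between the fat depots, 19 members were higher in iWAT than in BAT and 8 lower (32.7% and 28.0%). The largest differences in favour of iWAT were Sdf2l1 with 2.51 (SE 0.169) and Derl3 with 1.71 (SE 0.543). WT iWAT replicates 4 and 5 had lymphocyte scores (8 genes) of 6.6 and 7.1 against 0.347 to 1.83 in the other 3, and they held the most Derl3. They also had skeletal muscle scores (10 genes) of 5.76 and 9.62 against 0.912 to 2.37, so the parts of the 2 signals cannot be told apart here. Without these 2 libraries 18 members were higher in iWAT than in BAT and 7 lower, Sdf2l1 had 2.42 (SE 0.186), and the calls of Derl3 (1.18, edgeR adjusted p = 0.112), Ero1lb (0.16 in place of 0.87, edgeR adjusted p = 0.196) and Vcp (-0.20, edgeR adjusted p = 0.0217) were lost. Herpud1, a scaffold of the degradation complex, and Hyou1, the nucleotide exchange factor of BiP, were lower in iWAT, with -0.81 (SE 0.0931) and -0.77 (SE 0.134). iWAT had 23 members higher and 6 lower than muscle (41.2% and 33.2%), and BAT had 17 higher and 8 lower than muscle (32.3% and 31.8%). In the 20 libraries of FGF21 KO mice, 34 of 34, 32 of 32 and 32 of 33 of the members called in WT between liver and iWAT, BAT and muscle were called again in the same direction, and 0 in the opposite one. For iWAT against BAT it was 21 of 27, for iWAT against muscle 27 of 29 and for BAT against muscle 20 of 25.

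The effect of UCP1 loss was then compared in BAT, the tissue in which UCP1 is most abundant. In UCP1 KO against WT, 7 members were higher and 1 lower, 8 of 35, while 25.2% of all 15729 genes tested were called (13.8% higher and 11.4% lower). The members' share of calls was therefore close to that of all genes. The oxidase Ero1l, the sensor genes Ern1 and Atf6, the chaperone genes Sdf2l1 and Hspa5 and the degradation genes Sel1l and Edem1 rose, and Derl2 fell. The abundant Calr, Vcp and Hsp90b1 were not called. The median log2 fold change of the 35 members was 0.15, against 0.01 over all genes, and 24 of 35 were above 0 (50.9% of all genes). The libraries of the groups did not overlap in 6 members that were higher in UCP1 KO (11.8% of all genes) and in 1 that was lower (11.7%).

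**Figure D2:**
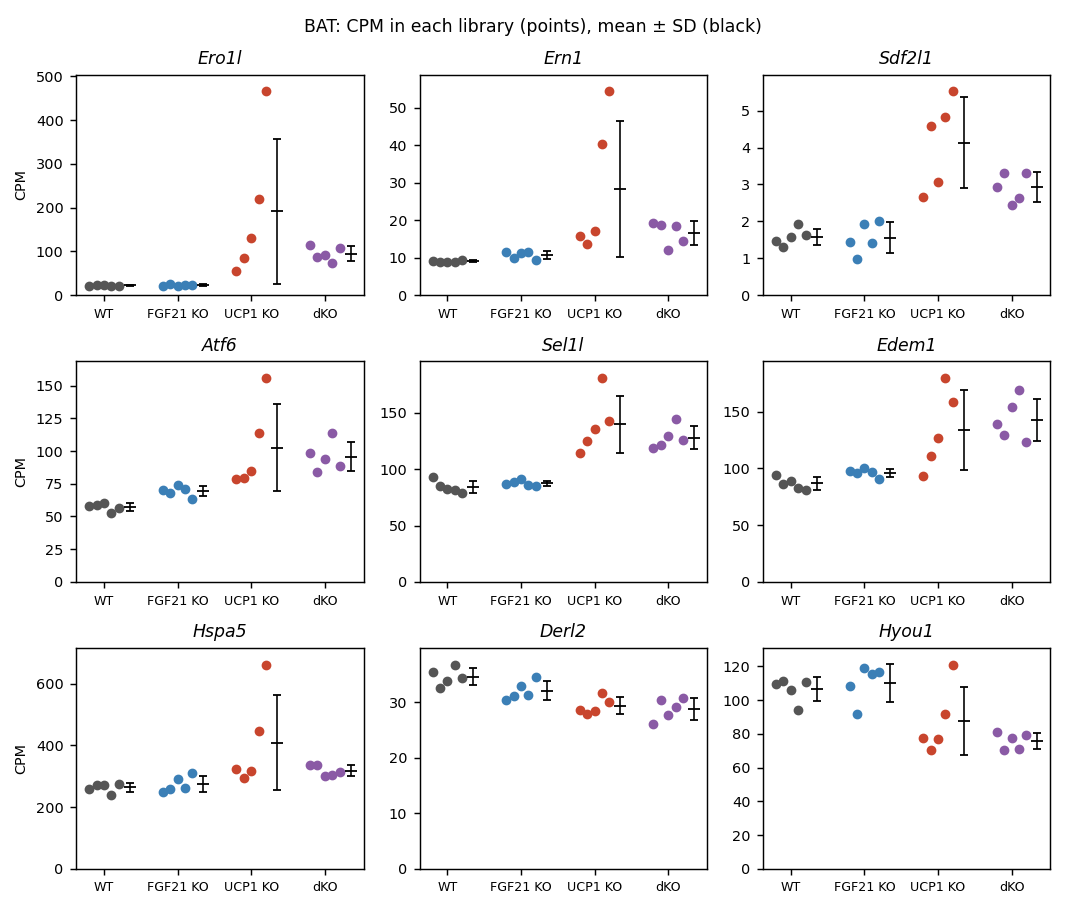
CPM of 9 members in each BAT library (points, 5 per genotype), with the mean and SD in black, on axes that start at 0. In UCP1 KO the points of Ero1l run from 54.6 to 467 against 21.1 to 23.2 in WT, and 2 of the 5 libraries carry the highest values of Ern1, Atf6 and Hspa5.

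Among the Hsp70 and Hsp90 chaperones and their partners, 2 of 9 rose. Hspa5, which encodes BiP (chromosome 2, 34771970 to 34777547 in GRCm38), was at 259, 272, 272, 240.2 and 275 CPM in the WT libraries and at 324, 294, 316, 448 and 662 CPM in the UCP1 KO libraries. The groups did not overlap, and 2 UCP1 KO libraries lay far above the other 3. The mean was 409 ± 154 CPM (SD, n = 5) against 264 ± 14.5, a log2 fold change of 0.63 (SE 0.161, edgeR adjusted p = 0.0045). In a fit of WT and UCP1 KO alone the call was lost (0.64, edgeR adjusted p = 0.0325). It was also lost in 3 of the fits that left out a library, with adjusted p = 0.0103 without WT replicate 1, 0.0125 without WT replicate 4 and 0.0119 without UCP1 KO replicate 4 (edgeR), and the log2 fold change was 0.39 without UCP1 KO replicate 5.

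Sdf2l1, which keeps substrates bound to BiP, was weakly expressed, at 1.46, 1.30, 1.57, 1.92 and 1.62 CPM in WT and 2.65, 4.60, 3.06, 4.83 and 5.54 CPM in UCP1 KO. All 5 UCP1 KO libraries were above the WT libraries. The log2 fold change was 1.39 (SE 0.212, edgeR adjusted p = 7.03e-05). Of the other 7, Manf, a secreted ER stress protein, had 0.49 (SE 0.148, edgeR adjusted p = 0.0141), which DESeq2 called, Hsp90b1 had 0.25 (SE 0.143), Dnajb11 had 0.18 (SE 0.0684), and Creld2, Dnajb9 and Dnajc3 lay between -0.02 and 0.15. Hyou1 went the other way, with -0.28 (SE 0.114, edgeR adjusted p = 0.0573).

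Of the 7 disulfide and proline folding enzymes, 1 was called. It was Ero1l (now named Ero1a, chromosome 14, 45283087 to 45318771), the flavoprotein that reoxidises protein disulfide isomerase with molecular oxygen. It was at 21.1, 22.0, 23.2, 21.5 and 21.7 CPM in WT and at 54.6, 83.5, 130.3, 220.2 and 467 CPM in UCP1 KO. The lowest UCP1 KO library was more than 2 times the highest WT library, and the UCP1 KO libraries spread far more than those of WT (191 ± 166 against 21.9 ± 0.802 CPM, SD, n = 5). The log2 fold change was 3.13 (SE 0.397, edgeR adjusted p = 1.21e-05), the largest of the 35 members, and 2.48 without UCP1 KO replicate 5, the highest library. Its paralog Ero1lb had -0.02 (SE 0.0776), and the isomerases that Ero1l supplies with oxidising power had 0.17 (P4hb, SE 0.0951), 0.19 (Pdia3, SE 0.107), 0.05 (Pdia4, SE 0.111) and 0.12 (Pdia6, SE 0.116). The prolyl isomerase Fkbp2 had -0.06 (SE 0.0913). The lectin chaperones Calr and Canx, of which neither was called, had 0.16 (SE 0.104) and 0.27 (SE 0.0974).

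Among the sensor genes and Xbp1, 2 of 4 rose. Ern1, which encodes IRE1 (chromosome 11, 106394650 to 106487852), was at 9.15, 8.71, 8.88, 8.94 and 9.41 CPM in WT and at 15.8, 13.8, 17.03, 40.3 and 54.6 CPM in UCP1 KO. The 2 libraries with the highest Ern1 were those with the highest Ero1l and Hspa5, and the other 3 were still above WT. The log2 fold change was 1.65 (SE 0.293, edgeR adjusted p = 0.000276). Atf6 (chromosome 1, 170704674 to 170867771) was at 58.2, 58.9, 60.1, 52.4 and 56.7 CPM in WT and at 78.5, 79.4, 84.6, 114 and 156 CPM in UCP1 KO, again without overlap, with a log2 fold change of 0.84 (SE 0.146, edgeR adjusted p = 0.000227). Its paralog Atf6b was at 18.1, 21.1, 20.1, 19.4 and 19.7 CPM in WT and 15.8, 18.2, 19.3, 18.1 and 25.9 CPM in UCP1 KO, and these overlapped (log2 fold change -0.01, SE 0.0980). Xbp1, the substrate of IRE1, was at 46.4, 51.0, 65.3, 83.6 and 65.2 CPM in WT and 60.8, 78.4, 58.4, 71.9 and 66.6 CPM in UCP1 KO, which also overlapped (0.11, SE 0.138).

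Of the 11 degradation members, 2 rose and 1 fell. Sel1l, the partner that stabilises the ubiquitin ligase HRD1 (Syvn1), was at 92.7, 85.1, 82.7, 81.8 and 79.2 CPM in WT and at 114, 125, 136, 181 and 142 CPM in UCP1 KO. No library overlapped, and the log2 fold change was 0.73 (SE 0.0927, edgeR adjusted p = 1.21e-05). Syvn1 itself had 0.02 (SE 0.0983). Edem1, which marks glycoproteins for degradation, was at 94.6, 86.7, 89.2, 82.5 and 80.9 CPM in WT and at 93.7, 111, 127, 180.0 and 158 CPM in UCP1 KO. In UCP1 KO 1 library lay within the WT range, and the log2 fold change was 0.63 (SE 0.131, edgeR adjusted p = 0.00109). With only the 2 genotypes compared in the fit the call was lost (0.63, edgeR adjusted p = 0.011). Edem2 and Edem3 had -0.05 (SE 0.0958) and -0.09 (SE 0.0724).

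Derl2 was the member that fell. It was at 35.5, 32.6, 33.9, 36.8 and 34.4 CPM in WT and at 28.7, 27.9, 28.5, 31.8 and 30.1 CPM in UCP1 KO, every one below WT. The change was small, with a log2 fold change of -0.24 (SE 0.0574, edgeR adjusted p = 0.00319), which lost its call without WT replicate 4 or UCP1 KO replicate 2, and with only the 2 genotypes compared (-0.23, edgeR adjusted p = 0.0134). Derl1 had 0.20 (SE 0.243), and Derl3, at 0.452 ± 0.246 against 0.228 ± 0.0984 CPM (SD, n = 5), had 0.98 (SE 0.538, edgeR adjusted p = 0.153). Herpud1 had 0.38 (SE 0.153, edgeR adjusted p = 0.0512), Os9 -0.07 (SE 0.0860) and Vcp -0.04 (SE 0.0579). The translocon members Sec61b and Ssr1 had 0.14 (SE 0.119) and -0.03 (SE 0.0848).

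The 2 UCP1 KO libraries that stood highest in Ero1l also stood high across the set. They held 27 and 30 of the 35 members above the median of the 20 BAT libraries, against 15 to 20 in the other 3 UCP1 KO libraries and 13 to 19 in WT. The median member lay 0.29 and 0.46 above its tissue median (log2) in them, and between -0.02 and 0.02 in the other 3. The macrophage score (8 genes) was 5.46 and 5.96 in these 2 and 4.60, 6.06 and 4.56 in the other 3, with summed levels of 238.1 to 659 CPM over UCP1 KO against 153.9 to 176 in WT. The skeletal muscle score (10 genes) was 4.90 and 2.41 in them and 2.17, 9.50 and 5.98 in the other 3, with summed levels of 65.1 to 9810 CPM in UCP1 KO against 24.7 to 110.4 in WT. The hepatocyte score (6 genes) set these 2 apart, at 1.96 and 1.89 against 0.34, 0.40 and 0.42 in the other 3 and -0.18 to 0.47 in WT, with summed levels of 16.12 to 54.17 CPM in UCP1 KO and 10.56 to 18.91 CPM in WT. The adipocyte score was 8.69 and 8.14 in them and 8.57, 9.52 and 9.04 in the other 3. The part of macrophages, hepatocyte transcripts and adipocyte share in the members' values was not tested, and when the skeletal muscle score was added to the model 8 members were again called in UCP1 KO against WT, with Canx gained (0.37, edgeR adjusted p = 0.00812) and Derl2 lost (-0.21, edgeR adjusted p = 0.0238).

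UCP1 KO replicates 4 and 5, numbered by sample order within each tissue, were the highest of their group in Hspa5 in every tissue. They lay 0.59 and 1.15 above the tissue median (log2) in BAT, 0.39 and 0.55 in iWAT, 0.54 and 0.59 in liver and 0.13 and 0.37 in muscle, while the other 3 lay between -0.21 and 0.15 in all 4 tissues. The labels do not say whether libraries with the same number come from the same mice, and the comparisons between tissues treat all libraries as independent.

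UCP1 loss without FGF21 was tested on the other 10 BAT libraries, dKO against FGF21 KO, which share none with the comparison above. Here 4 members were higher and 1 lower (13.5% of all genes called, 6.74% higher and 6.80% lower), and 6 were higher and 2 lower without overlap (8.84% and 9.80%). Ero1l, Sdf2l1, Edem1 and Sel1l rose, and Hyou1 fell. Ero1l was at 21.3, 25.4, 19.5, 24.0 and 22.2 CPM in FGF21 KO and at 114, 85.9, 90.5, 73.6 and 108 CPM in dKO. All dKO libraries were above FGF21 KO and close to each other, and the log2 fold change was 2.07 (SE 0.382, edgeR adjusted p = 0.00075). Sdf2l1 was at 1.43, 0.977, 1.94, 1.42 and 2.00 CPM in FGF21 KO and 2.93, 3.32, 2.45, 2.62 and 3.32 CPM in dKO, without overlap, with 0.92 (SE 0.211, edgeR adjusted p = 0.00395), a call that was lost in 5 of the 10 fits that left out a library (dKO replicates 2 and 5 and FGF21 KO replicates 1, 2 and 4). Edem1 was at 98.0, 95.6, 100.3, 96.6 and 91.1 CPM in FGF21 KO and 139.5, 129.7, 154, 169 and 123 CPM in dKO, with 0.57 (SE 0.131, edgeR adjusted p = 0.00394). Sel1l had 0.55 (SE 0.0925, edgeR adjusted p = 0.000363).

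Hyou1 was at 108, 91.6, 119, 115 and 117 CPM in FGF21 KO and at 80.9, 70.3, 77.2, 71.0 and 79.4 CPM in dKO. Every dKO library was lower, and the log2 fold change was -0.54 (SE 0.115, edgeR adjusted p = 0.00223). The sensor genes Ern1 and Atf6 were above FGF21 KO in every dKO library without passing the threshold. Ern1 was at 11.4, 9.83, 11.2, 11.5 and 9.35 CPM against 19.2, 18.7, 12.1, 18.5 and 14.5 CPM in dKO, with 0.64 (SE 0.288, edgeR adjusted p = 0.104). Atf6 had 0.46 (SE 0.145, edgeR adjusted p = 0.0232), and DESeq2 called it. Hspa5 had 0.22 (SE 0.160, edgeR adjusted p = 0.332), with 318 ± 18.2 against 274 ± 25.4 CPM (SD, n = 5), and Derl2 had -0.16 (SE 0.0574, edgeR adjusted p = 0.0477). In this comparison the marker scores of other cells moved as well. The hepatocyte score was 1.89 to 2.36 in dKO and -0.56 to 1.69 in FGF21 KO, with no overlap between the groups. The summed levels did overlap, at 48.01 to 65.14 and 9.35 to 49.1 CPM. The macrophage score was 4.15 to 5.19 and 3.66 to 4.33 (218.7 to 377.6 and 136.1 to 240 CPM). The part of both in the members' values was not tested. The skeletal muscle score was 2.64 to 8.48 in dKO and 1.14 to 4.69 in FGF21 KO. With that score as a covariate only Ero1l and Sel1l were called, and Sdf2l1 had 0.96 (edgeR adjusted p = 0.0149), Edem1 0.54 (edgeR adjusted p = 0.0348) and Hyou1 -0.40 (edgeR adjusted p = 0.0511).

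**Figure D3:**
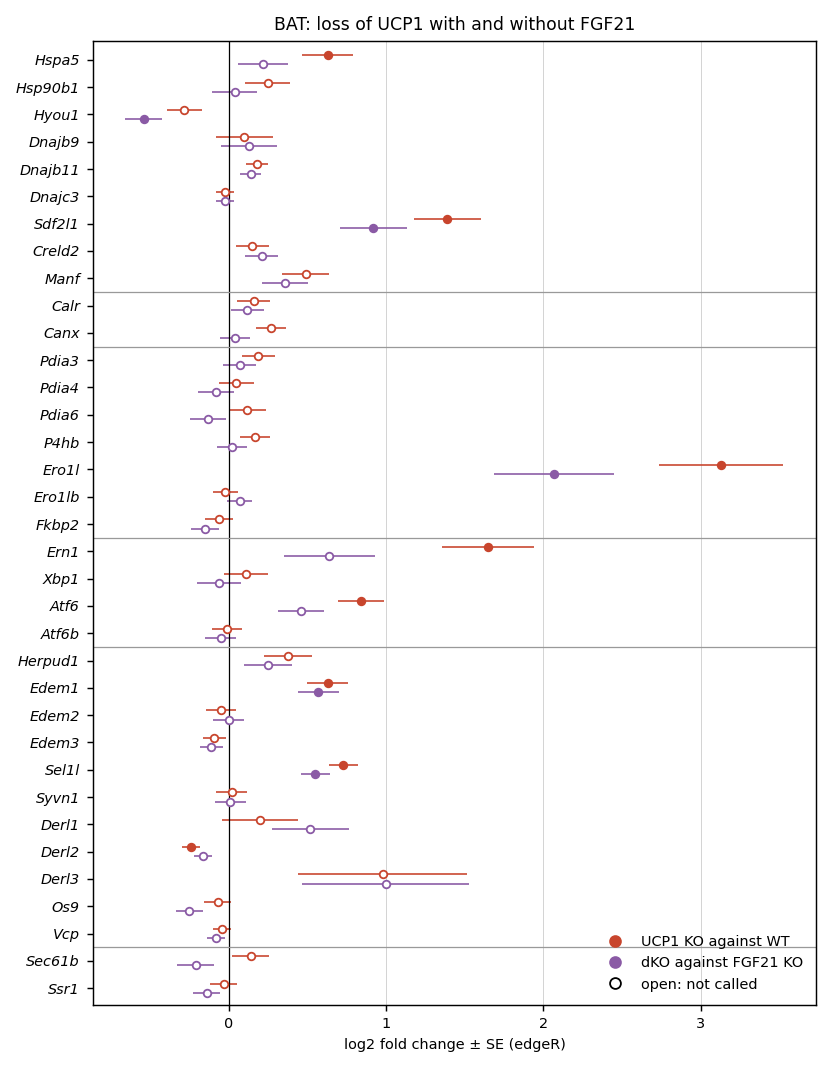
Log2 fold change ± SE (edgeR) of the 35 members in BAT for UCP1 KO against WT (red) and dKO against FGF21 KO (purple), which share no library. Filled points were called, open ones were not. Ero1l lies farthest right in both, at 3.13 and 2.07, and most chaperones and isomerases lie near 0.

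The presence of FGF21 was examined by 2 further comparisons in BAT. Between FGF21 KO and WT, edgeR and DESeq2 called 0 members (0% of all genes by edgeR), and 1, Xbp1, had an unadjusted p under 0.05 (8.55% of all genes), with -0.29 (SE 0.138). Between UCP1 KO and dKO, both tools also called 0 members (0.0636% of all genes by edgeR). There 11 members had an unadjusted p under 0.05, all of them higher in UCP1 KO (7.17% of all genes), and 28 of 35 had a log2 fold change above 0 (51.0%). Ero1l had 1.02 (SE 0.368, edgeR adjusted p = 0.286) and Ern1 0.77 (SE 0.285, edgeR adjusted p = 0.292). Xbp1 had 0.46 (SE 0.138, edgeR adjusted p = 0.207) and Pdia6 0.39 (SE 0.116, edgeR adjusted p = 0.203), and in these 2 every UCP1 KO library was above every dKO library (0.483% of all genes). The count of 11 was 4 without UCP1 KO replicate 5, 6 without UCP1 KO replicate 4 and 14 without UCP1 KO replicate 1. The interaction, the UCP1 effect with FGF21 minus that without it, called 0 members by either tool (0% by edgeR), and Ern1 (1.01, SE 0.407) and Sec61b (0.36, SE 0.169) had an unadjusted p under 0.05 (5.37% of all genes). No difference between the effects of UCP1 loss with and without FGF21 was therefore detectable for any member at this depth and number of libraries.

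Genes of the same pathways outside the 35 were read from lists of 86 genes, all tested in BAT. In UCP1 KO against WT 16 of them rose and 11 fell, with 13.8% of all genes called as higher and 11.4% as lower, so the lists as a whole lay near the background. The PERK branch, in which translation control feeds ATF4, had 5 of 9 genes higher and 0 lower. The pseudokinase gene Trib3 had a log2 fold change of 4.79 (SE 0.394), with 163 ± 108 against 5.88 ± 1.16 CPM (SD, n = 5). The glutathione-degrading enzyme gene Chac1 had 3.40 (SE 0.414), Ddit3, which encodes CHOP, 2.67 (SE 0.383), the phosphatase subunit gene Ppp1r15a 1.91 (SE 0.316) and Atf4 1.24 (SE 0.123). The kinase gene Eif2ak3 (PERK) itself had -0.17 (SE 0.126). In dKO against FGF21 KO the count was again 5 of 9, with 3.54 (SE 0.372) for Trib3 and 0.83 (SE 0.122) for Atf4.

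The remaining lists had both rises and falls in UCP1 KO against WT. Other folding enzymes and chaperones had 4 higher and 2 lower of 22, other degradation genes 3 and 4 of 20, translocation and glycosylation genes 1 and 2 of 23, and the genes of ATF6 processing, the Creb3 family and ER retrieval 3 and 3 of 12. The prolyl isomerase gene Fkbp11 had 1.67 (SE 0.259) at a low level (1.89 ± 0.600 against 0.590 ± 0.164 CPM), Creb3l3 1.22 (SE 0.328), Erlin1 1.00 (SE 0.250), the cell death suppressor Tmbim6 0.75 (SE 0.153) and the sulfhydryl oxidase gene Qsox1 0.72 (SE 0.103). The largest falls were Fkbp7 with -0.43 (SE 0.0942), Rnf5 with -0.40 (SE 0.0779), Dad1 with -0.35 (SE 0.0722), Fkbp9 with -0.33 (SE 0.0865) and the KDEL receptor gene Kdelr1 with -0.32 (SE 0.0555). Mbtps1, which encodes the protease that activates ATF6, fell by 0.30 (SE 0.0505), and Mbtps2, its intramembrane partner, rose by 0.31 (SE 0.0792). In dKO against FGF21 KO 10 of the 86 rose and 7 fell, beside 6.74% and 6.80% of all genes.

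In iWAT no member was called in any comparison by edgeR. The directions take the libraries as labelled. Ucp1 was higher in UCP1 KO than in WT here and lower in BAT, while Fgf21 was higher in UCP1 KO in both depots. For UCP1 KO against WT (0.610% of all 17380 genes called), 7 members had an unadjusted p under 0.05 (14.7% of all genes), 5 of them higher (10.2%), and DESeq2 called 1. That was Dnajb9, the J-domain co-chaperone ERdj4, which was at 47.8, 42.0, 41.9, 42.6 and 45.0 CPM in WT and at 75.01, 50.05, 50.5, 70.4 and 83.5 CPM in UCP1 KO. Every UCP1 KO library was above WT (2.92% of all genes), with a log2 fold change of 0.59 (SE 0.147, edgeR adjusted p = 0.0393, DESeq2 adjusted p = 0.00285). With the other settings tried, which included marker score covariates, the log2 fold change was 0.52 to 0.66. The edgeR adjusted p reached 0.0853 in these and 0.148 with a library left out. The skeletal muscle score was 10 in the UCP1 KO library at 75.01 CPM, 1.45 to 4.32 in the rest of that group and 0.912 to 9.62 in WT. Ero1l was at 27.0, 28.3, 26.7, 23.8 and 26.9 CPM in WT and at 25.7, 28.9, 39.6, 50.4 and 79.7 CPM in UCP1 KO. Only 3 of the 5 UCP1 KO libraries stood above WT, and the log2 fold change was 0.76 (SE 0.210, edgeR adjusted p = 0.0637). Hspa5 and the isomerases were not among the 7.

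Against dKO (0.466% of all genes called), Dnajb9 had 0.59 (SE 0.147, edgeR adjusted p = 0.0429, DESeq2 adjusted p = 0.00396), with dKO libraries at 35.7, 51.2, 36.1, 42.9 and 53.3 CPM, of which 2 lay within the UCP1 KO range. With the other settings tried Dnajb9 had 0.48 to 0.59, and the edgeR adjusted p reached 0.222. DESeq2 called this 1 member, and 5 had an unadjusted p under 0.05 (14.2% of all genes). In dKO against FGF21 KO edgeR and DESeq2 called 0 (0.0115% of all genes by edgeR) and 1 had an unadjusted p under 0.05 (8.62%), Ern1, with -0.28 (SE 0.123). The interaction also gave 0 calls by either tool (0% by edgeR), with 4 members at an unadjusted p under 0.05 (9.98%), among them Ero1l with 0.75 (SE 0.296) and Os9 with -0.41 (SE 0.135). The brown adipocyte score (6 genes) moved with genotype, at 1.81 to 3.45 in WT, 1.85 to 4.18 in dKO and 5.89 to 8.21 in UCP1 KO, with summed levels of 529.6 to 2481 CPM in UCP1 KO and 48.2 to 152.8 in WT. Its part in the values of Dnajb9 was not tested.

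Between FGF21 KO and WT in iWAT, edgeR and DESeq2 called 0 members (0.00575% of all genes by edgeR) and 5 had an unadjusted p under 0.05 (17.4% of all genes). Derl3 was at 0.609, 0.895, 0.944, 1.60 and 1.82 CPM in WT and 2.78, 0.380, 4.49, 5.54 and 2.34 CPM in FGF21 KO, with 1.40 (SE 0.609, edgeR adjusted p = 0.267). In iWAT 4 of the 5 FGF21 KO libraries, 2 of WT, 2 of dKO and 1 of UCP1 KO had a lymphocyte score (8 genes) above 4, and the 4 FGF21 KO libraries with the most Derl3 were those with the high score. The plasma cell score (7 genes) was 1.04 to 5.10 in FGF21 KO and 0.916 to 3.87 in WT, with summed levels of 55.1 to 578.9 and 52.6 to 234 CPM. Calr was lower in every FGF21 KO library, with 450.1, 449.8, 505, 451 and 537 CPM against 682, 568, 589.8, 558 and 547 CPM, and had -0.30 (SE 0.119, edgeR adjusted p = 0.257), while 1.38% of all genes were lower in every FGF21 KO library.

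**Figure D4:**
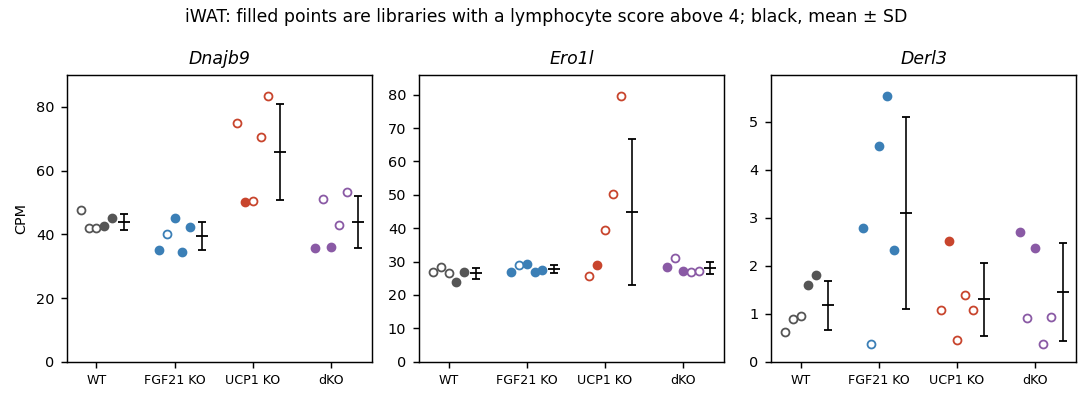
CPM of Dnajb9, Ero1l and Derl3 in each iWAT library, with the mean and SD in black, on axes that start at 0. Filled points are libraries with a lymphocyte score above 4. The UCP1 KO points of Dnajb9 lie at 50.05 to 83.5 CPM above all WT points, and the highest Derl3 points are filled.

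The log2 fold change of UCP1 KO against WT was higher in BAT than in iWAT for 4 members, with the iWAT libraries taken as labelled, when the difference was tested directly over all 80 libraries (3.75% of 18297 genes were called as higher in BAT and 6.77%, with 0 members, as lower). For UCP1 KO against WT the difference of log2 fold changes was 2.35 for Ero1l (SE 0.338, edgeR adjusted p = 3.07e-07), 1.62 for Ern1 (SE 0.295, edgeR adjusted p = 3.1e-05), 0.60 for Sel1l (SE 0.158, edgeR adjusted p = 0.00408) and 0.54 for Atf6 (SE 0.155, edgeR adjusted p = 0.0093). The effects within each tissue were 3.13 and 0.76 for Ero1l, 1.65 and 0.01 for Ern1, 0.73 and 0.11 for Sel1l and 0.84 and 0.28 for Atf6, in BAT and iWAT. The iWAT effects, and with them the differences, take the libraries as labelled. In iWAT Ucp1 was higher in UCP1 KO than in WT, the opposite of BAT, which by itself does not show a wrong label. Fgf21 had 23 to 385 counts in iWAT of UCP1 KO and 2 to 11 in WT, and the brown adipocyte score was 5.89 to 8.21 and 1.81 to 3.45. For Atf6 the call was also lost with only the 40 libraries of BAT and iWAT (0.54, edgeR adjusted p = 0.0399). It was gone in 14 of 20 fits with a library left out, and the difference was 0.33 without BAT UCP1 KO replicate 5. Without BAT UCP1 KO replicate 4 or iWAT WT replicate 1 the calls of Atf6 and Sel1l were both lost, with 0.49 and 0.56 for Sel1l. For dKO against FGF21 KO it was 2.05 for Ero1l alone (SE 0.337, edgeR adjusted p = 2.07e-05, with 3.77% of all genes called as higher in BAT and 3.24%, with 0 members, as lower).

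In liver most members lay higher in UCP1 KO than in WT by a small amount, and edgeR called none of the 35 (0.0694% of all 14407 genes called). DESeq2 called 3, Calr (adjusted p = 0.00256), P4hb (0.00509) and Dnajb11 (0.00809). The share above is that of edgeR, and the share of all genes that DESeq2 called is not given here. Of the 35 members 21 had an unadjusted p under 0.05, all of them higher in UCP1 KO, where 5.80% of all genes were higher at that p. The median log2 fold change was 0.31 against 0.00 over all genes, and 30 of 35 were above 0 (49.9% of all genes). The groups did not overlap in 7 members, Sdf2l1, Hyou1, Dnajb11, Calr, Pdia3, Pdia6 and P4hb (1.39% of all genes were higher without overlap).

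By role, the 21 covered 8 of the 9 Hsp70 and Hsp90 chaperones and partners, both lectin chaperones, 5 of the 7 disulfide and proline enzymes, 5 of the 11 degradation members, 1 of the 2 translocon members and 0 of the 4 sensor genes with Xbp1. These had -0.26 (Ern1, SE 0.217), -0.08 (Xbp1, SE 0.227), 0.00 (Atf6, SE 0.109) and 0.17 (Atf6b, SE 0.122), and Ero1l had -0.07 (SE 0.118). Of the 7 members that rose in BAT, Sdf2l1, Sel1l and Hspa5 were among the 21. The largest log2 fold changes were 1.69 for Derl3 (SE 0.665), 1.11 for Creld2 (SE 0.363), 0.85 for Manf (SE 0.250) and Sdf2l1 (SE 0.261), and 0.75 for Hyou1 (SE 0.218). All 10 members with an ERSE in the promoter window were among the 21, with a median log2 fold change of 0.51, as were 8 of the 19 members with neither element, with a median of 0.18. edgeR called 0 of either in liver. In BAT, for the same genotypes, the medians of the 10 and the 19 were 0.15 and 0.10. In BAT edgeR called 1 of the 10, Hspa5, and 5 higher and 1 lower of the 19, beside 13.8% of all genes called as higher and 11.4% as lower. These shares are a description, since the members were not drawn at random.

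Calr, Dnajb11 and Hspa5 are given per library in liver; they were chosen after their values were seen. Calr (chromosome 8, 84841850 to 84846934) was at 900.4, 834, 761, 844 and 722 CPM in WT and at 946, 1160, 1103, 1260 and 1175 CPM in UCP1 KO, with 0.47 (SE 0.106, edgeR adjusted p = 0.0431). Dnajb11, the co-chaperone ERdj3, was at 112, 109, 96.7, 103 and 88.5 CPM in WT and at 146, 134, 129, 162 and 189.5 CPM in UCP1 KO, with 0.58 (SE 0.137, edgeR adjusted p = 0.0596). Neither gene overlapped between the groups. Hspa5 did overlap, with 1150, 987, 911, 653 and 631 CPM in WT and 1103, 1275, 1151, 1667 and 1736 CPM in UCP1 KO, and had 0.68 (SE 0.217, edgeR adjusted p = 0.213). Calr lies 1.54 Mb from Ucp1, and a part of the altered locus in its values was not tested.

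**Figure D5:**
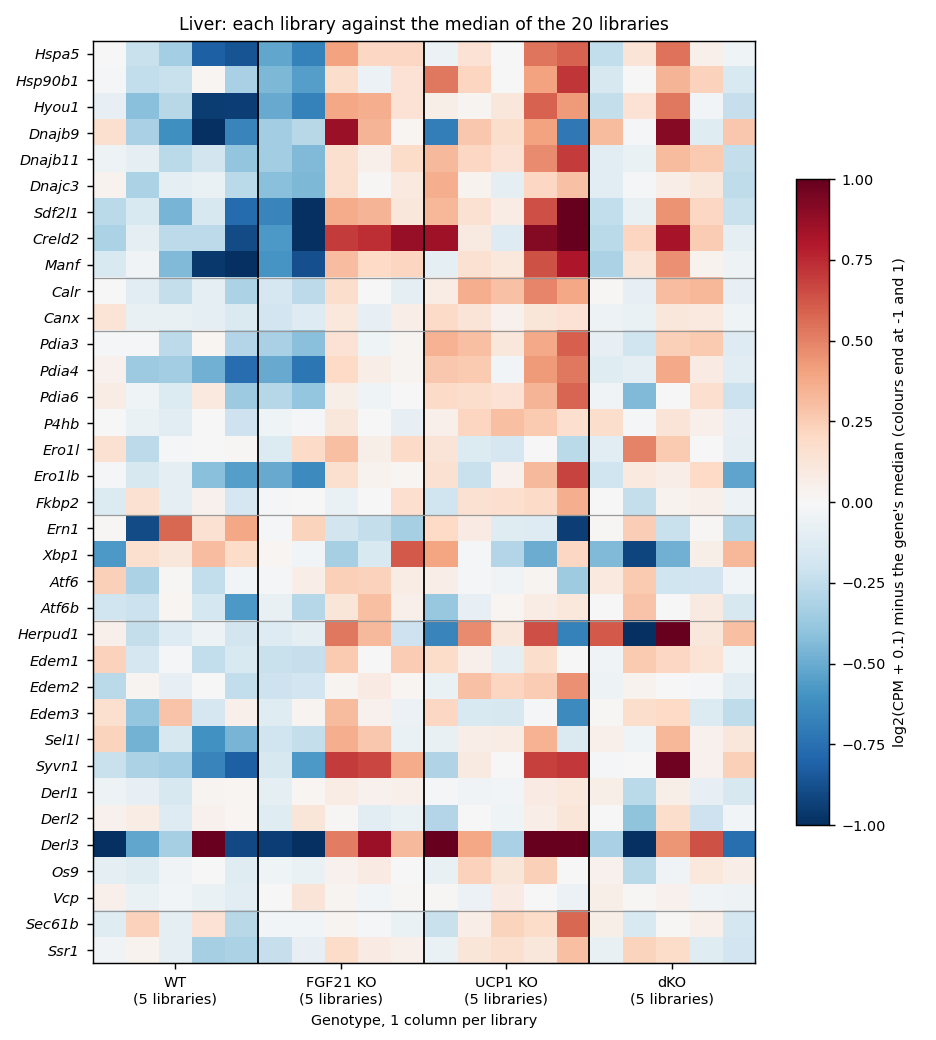
Each of the 35 members (rows, grouped by role) in each of the 20 liver libraries (columns, 5 per genotype), as log2 of CPM plus 0.1 minus the gene's median over the 20 libraries, with colours ending at -1 and 1. WT libraries are mostly blue and UCP1 KO libraries mostly red, and FGF21 KO and dKO hold libraries of both kinds.

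The liver libraries of FGF21 KO and dKO spread widely. In WT 5 to 15 members were above their tissue median per library and in UCP1 KO 21 to 30, while the libraries of FGF21 KO ranged from 2 to 32 and those of dKO from 6 to 30. Hspa5 was at 803, 719.8, 1518, 1326 and 1325 CPM in FGF21 KO and at 969, 1261, 1680, 1191 and 1116 CPM in dKO. In dKO against FGF21 KO 0 of 35 members had an unadjusted p under 0.05 (6.75% of all genes), and edgeR (0.00694% of all genes) and DESeq2 called 0. For UCP1 KO against dKO both tools called 0 (0.00694% by edgeR), with 6 members at an unadjusted p under 0.05, all higher in UCP1 KO (4.51% of all genes). For FGF21 KO against WT both called 0 (0.229% by edgeR), with 4 higher (3.64%). The interaction had 0 calls by both tools (0% by edgeR) and 5 members higher at an unadjusted p under 0.05 (2.21%), among them Creld2 with 1.18 (SE 0.509) and Dnajb11 with 0.48 (SE 0.194).

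The skeletal muscle score, over 10 genes, differed between the liver groups as well, at 1.26 to 3.33 in WT (summed levels 34.5 to 145 CPM) and 0.587 to 1.45 in UCP1 KO (20.8 to 37.4 CPM), and with it as a covariate 9 members in place of 21 had an unadjusted p under 0.05, all higher, beside 3.06% of all genes. The median log2 fold change of the 35 was 0.30 with the score and 0.31 without it. The UCP1 KO liver libraries also had fewer reads on genes, 29508937 to 30627486 against 32089448 to 41371506 in WT, and the part of depth was not tested. The count of 21 stayed between 18 and 22 when any library of either genotype was left out. Of the 85 genes of the pathway lists tested in liver, 35 had an unadjusted p under 0.05 in UCP1 KO against WT, all higher, beside 5.80% of all genes, and edgeR called 0. Of the 35, 18 were among the 23 translocation, signal peptidase and glycosylation genes. When this muscle score was added to the model, 14 of the 85 had an unadjusted p under 0.05, all higher, and the median log2 fold change of the 85 was 0.18 in place of 0.19.

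In muscle edgeR called 0 of 34 members in every comparison. For FGF21 KO against WT (0.00662% of all 15114 genes called) 3 members had an unadjusted p under 0.05 (12.9% of all genes), and DESeq2 called Sel1l (adjusted p = 0.00551). Sel1l was at 80.8, 84.7, 79.8, 87.2 and 86.5 CPM in WT and 92.6, 88.0, 96.5, 94.2 and 95.1 CPM in FGF21 KO, without overlap (1.65% of all genes) but with a log2 fold change of 0.15 (SE 0.0363, edgeR adjusted p = 0.0442). The hepatocyte score was 0.301 to 4.19 in muscle of FGF21 KO and -0.82 to 0.463 in WT, and its part in the values of Sel1l was not tested. Ern1 had 0.35 (SE 0.0968, edgeR adjusted p = 0.0819). For UCP1 KO against WT 3 members had an unadjusted p under 0.05 (9.80% of all genes, 0.0265% called), for dKO against FGF21 KO 1 (7.96%, 0.0595% called), for UCP1 KO against dKO 4 (11.7%, 0% called) and for the interaction 3 (7.48%, 0% called), and DESeq2 called 0 in each of these.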

How the data were processed

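RNA was measured by poly(A) sequencing with stranded TruSeq libraries in 80 tissue samples. The deposited values are raw counts per gene, which the authors made with HTSeq-count from STAR alignments to the mm10 build (GRCm38); the strand setting is not given in the sources used here, so overlapping antisense genes may not be separated. The row named unknown, with at most 15 counts, was left out. A gene was tested in a tissue when its highest count exceeded 15, its sum exceeded 75 and no more than 10 of the 20 libraries were at 0. Counts were fitted with edgeR 4.0.16 in R 4.3.3 (TMM factors, quasi-likelihood F test, 1 mean per genotype), with Benjamini-Hochberg adjustment over all genes tested, and the standard error was the absolute log2 fold change divided by the root of F. DESeq2 1.42.0 was an alternative. The shares of all genes called are those of edgeR throughout, also where calls of DESeq2 are given. The scripts were tested on simulated data. Log2 CPM used a prior count of 2. TMM factors were computed within each tissue, over the 20 WT libraries for comparisons of tissues and over all 80 for differences between depots. Exon lengths came from the GENCODE annotation and promoters from RefSeq (GRCm38.p6). Marker scores are means of log2 of CPM plus 0.1.

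The members and the gene lists were chosen with earlier results of these data known. All 35 members are reported, with values per library for the largest called changes in BAT, for the leading ones elsewhere and, in BAT, for the sensor genes and Xbp1. Replicate numbers follow sample order, because the labels give none, and were not used to pair libraries. The labels do not tie libraries of different tissues to mice. The edgeR p-values rest on the spread between libraries of the same group, estimated for each gene over all groups of a fit together. No 2 libraries of a group held the same counts. The other settings tried were RLE factors, no filter, a threshold of 0.05, only the genotypes compared, only the 40 libraries of BAT and iWAT for the differences between them, marker score covariates and each library left out.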

Additional observations from a re-analysis of the deposited data

Results flagged for a closer look

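For 4 members the log2 fold change of UCP1 KO against WT differed between BAT and iWAT by the test of the difference itself, beside 3.75% of all genes called as higher in BAT and 6.77% as lower. The log2 fold change in BAT minus that in iWAT was 2.35 for Ero1l (SE 0.338, edgeR adjusted p = 3.07e-07), 1.62 for Ern1 (SE 0.295, edgeR adjusted p = 3.1e-05), 0.60 for Sel1l (SE 0.158, edgeR adjusted p = 0.00408) and 0.54 for Atf6 (SE 0.155, edgeR adjusted p = 0.0093). The call of Atf6 was lost with only the 40 libraries of BAT and iWAT (edgeR adjusted p = 0.0399) and in 14 of 20 fits with a library left out. All of these take the iWAT libraries as labelled. In iWAT Ucp1 was higher in UCP1 KO than in WT, the opposite of BAT, which by itself does not show a wrong label. Fgf21 was higher in UCP1 KO in both depots, as the paper also reports. The iWAT log2 fold changes were 0.76 for Ero1l, 0.01 for Ern1, 0.11 for Sel1l and 0.28 for Atf6. For dKO against FGF21 KO it was 2.05 for Ero1l (SE 0.337, edgeR adjusted p = 2.07e-05), beside 3.77% of all genes called as higher and 3.24% as lower. No library stood apart from the other 4 of its group by Dixon's criterion in the 72 groups looked at, where chance alone gives about 1 in 20. These groups cover only some members and tissues. The criterion weighs the most extreme library alone, so it can miss groups with more than 1 high library, as for Hspa5 in BAT UCP1 KO.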

How the results depend on the processing

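No paired analysis was possible because the labels give no replicate numbers and tie no libraries to the same mouse. No result changed direction. The cause of the changes below was not tested. At an adjusted p under 0.05 the members called were 8 in place of 5 for dKO against FGF21 KO in BAT, 1 in place of 0 for UCP1 KO against WT and against dKO in iWAT, for UCP1 KO against WT in liver and for FGF21 KO against WT in muscle, and 7 in place of 4 and of 1 for the BAT and iWAT differences. DESeq2 gave 1, 1, 3 and 1 in place of 0 for the same 4 comparisons in iWAT, liver and muscle. In WT, 1 member in place of 0 was lower in liver than in iWAT with DESeq2, RLE factors or the looser threshold, and 0 in place of 1 was lower in liver than in muscle in FGF21 KO libraries. With only the 2 genotypes compared, BAT UCP1 KO against WT had 5 calls in place of 8 (Hspa5, Edem1 and Derl2 lost), and UCP1 KO against dKO had 5 members at an unadjusted p under 0.05 in place of 11. The skeletal muscle score as a covariate gave 2 calls in place of 5 for dKO against FGF21 KO in BAT, 7 in place of 11 for UCP1 KO against dKO, and 9 in place of 21 in liver, where the members' median log2 fold change was 0.30 in place of 0.31; the counts at an unadjusted p, and the fit of WT depots without the iWAT libraries of high lymphocyte score, were added after seeing the data. With each library left out, calls in BAT ranged from 6 to 10 for UCP1 KO against WT and from 4 to 6 for dKO against FGF21 KO, members at an unadjusted p from 4 to 14 for UCP1 KO against dKO and from 18 to 22 in liver, differences between BAT and iWAT from 2 to 5 and from 1 to 4, and calls from 0 to 1 both in iWAT (UCP1 KO against dKO) and for members lower in liver than in iWAT. Derl3 did not pass the count filter in muscle and was not tested there.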
